A study of Mus musculus with 8 samples.

Results

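The genes described here are the cytosolic ribosomal protein genes of mouse bone marrow-derived dendritic cells (BMDCs). They were taken by name: every gene with a single annotated symbol of the form *Rpl* or *Rps* plus a number, together with *Rplp0*, *Rplp1*, *Rplp2* and *Rpsa*. This rule found 49 genes, 26 of the large and 23 of the small subunit, among 18193 genes with a single-symbol probe set. *Rplp1* is not among the 49, and neither are *Rpl3*, *Rpl5* and *Rpl10*. Of a gene with several probe sets, the one with the highest mean log2 signal over the 8 arrays was used. A further 28 ribosomal protein symbols occur only on probe sets that list several symbols, and those genes are not members.

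The cells were treated with [BF/S+L/Ep], a butanol fraction of a stem and leaf extract of *Echinacea purpurea*, or with its vehicle DMSO. The 4 groups were 75 μg/mL [BF/S+L/Ep] for 12 h, DMSO alone for 12 h, [BF/S+L/Ep] for 4 h and DMSO alone for 4 h, each with 2 Affymetrix arrays. All cultures held 0.1% DMSO, and all were bone marrow cells of BALB/c females, aged 6 weeks, grown for 9 days with GM-CSF and not given LPS. The GM-CSF was 200 U/mL by the sample labels and 1000 U/mL by the methods, and such cultures hold immature DCs beside other myeloid cells. The values are MAS5 signals, a linear brightness per probe set. The paper calls the 2 arrays of a group biological sample replicates and speaks of 2 independent experiments. The sources do not say whether the 2 arrays stand for separate mice, so p-values measure the spread between these arrays.

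Ribosomal proteins surround the ribosomal RNA of the large and the small subunit, and most of them are needed in equal number. Their mRNAs are among the most abundant in a growing cell, and most start with a cytosine and a run of pyrimidines, the terminal oligopyrimidine (TOP) tract, through which mTOR signalling and LARP1 set how much of the mRNA is translated. In DCs, activation is known to raise and later to lower protein synthesis. Arrays measure only the amount of mRNA.

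The start of the gene is shown for 6 of the genes described below, because the TOP tract is the feature by which this family is known. Each line gives 15 bases before the annotated start and 15 from it, 5′ to 3′ on the gene's strand. Capitals mark an uninterrupted run of C and T that begins with C at the start base.
Rplp2: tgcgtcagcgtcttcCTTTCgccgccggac
Rps6: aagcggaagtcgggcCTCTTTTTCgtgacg
Rps18: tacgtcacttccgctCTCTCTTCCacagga
Rpl22: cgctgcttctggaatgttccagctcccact
Rpl22l1: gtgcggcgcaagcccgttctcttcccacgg
Rps27l: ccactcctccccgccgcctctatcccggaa
The windows are from RefSeq, build GRCm38.p6: chr7:141447636-141447665 on the plus strand for *Rplp2*, chr4:86857353-86857382 on the minus strand for *Rps6* and chr17:33955651-33955680 on the minus strand for *Rps18*. Those without such a run are chr4:152324421-152324450 for *Rpl22*, chr3:28805493-28805522 for *Rpl22l1* and chr9:66946071-66946100 for *Rps27l*, all on the plus strand. The run is 5 bases in *Rplp2*, the acidic stalk protein that helps to recruit elongation factors, and 9 bases each in *Rps6*, the phosphorylation target of S6 kinase, and *Rps18*.

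The RefSeq table held 43 of the 49 genes, and where a gene had several starts the one farthest upstream was used. A start at C followed by at least 4 more pyrimidines was found in 8 of the 43 (18.6%), namely *Rpl14*, *Rpl35*, *Rpl38*, *Rplp2*, *Rps6*, *Rps10*, *Rps18* and *Rps27*, against 670 of 27018 genes (2.48%) in the whole table. In *Rpl22l1* a pyrimidine run begins 1 base after the annotated G, so a tract that lies a few bases from the annotated start is not counted. The letters CGGAAG, the core of sites for ETS factors, stood on either strand of the window from 250 bases before to 50 after the start in 30 of 43 genes (69.8%) and in 17.2% of all genes. The letters AAGATGG, found in sites for YY1, stood there in 8 of 43 (18.6%) and in 6.47% of all genes. Mitochondrial ribosomal protein genes held these letters as well, CGGAAG in 38 of 69 (55.1%) and AAGATGG in 13 of 69 (18.8%), but none of the 69 had the start tract. These are matches of letters, not sites shown to be bound.

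The probe sets of this family lay at the upper end of the arrays. Of the 49 genes, 46 exceeded the background reference on every one of the 8 arrays, a level set on each array at the 95th percentile of probe sets for sensory receptors (83 of the olfactory, vomeronasal and taste families). Of these, 35 had a mean log2 signal over 14 (a signal of 16384), and their single signals lay between 17417 and 67591, while the highest signals on the arrays were 63008 to 72771. Whether such signals still follow the amount of mRNA was not tested. The 49 probe sets made up 3.21% and 3.23% of the summed signal after [BF/S+L/Ep] and 3.43% and 3.52% in DMSO at 12 h, and 3.66% and 3.29% after [BF/S+L/Ep] and 3.49% and 3.59% in DMSO at 4 h.

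The remaining genes were dimmer or not measurable. *Rpl3l*, a paralogue of *Rpl3* known from striated muscle, was above the reference on 0 arrays, with signals of 14.3 and 13.3 after [BF/S+L/Ep] and 20.6 and 13.8 in DMSO at 12 h, and 35.2 and 30.1 after [BF/S+L/Ep] and 89.4 and 63.8 in DMSO at 4 h. *Rpl39l*, a paralogue of *Rpl39* known from testis, was above it on 3 arrays, with signals of 56.7 to 112.2 over the 8. Neither gene allows a fold change here. *Rps16*, a core protein of the small subunit, was also above the reference on 0 arrays at its only single-symbol probe set, yet both of the multi-symbol probe sets that list it were above it on all 8. Other core genes were above the reference but dim at the probe set used: *Rps6* had 305.1 to 566.5 and *Rps27* 273.3 to 709.0. The other single-symbol probe set of *Rps6* was dimmer still and above the reference on 0 arrays. Of the 9 multi-symbol probe sets that list *Rps6*, 8 were above the reference on all 8 arrays, as was the 1 that lists *Rps27*. A dim signal at the probe set used does not show that the mRNA is scarce. Of the dendritic cell markers, 7 of 8 were above the reference on all arrays, *Itgax*, *H2-Aa* and *Cd74* among them, beside 5 of 6 macrophage markers, 3 of 6 neutrophil markers and 0 of the 3 B cell, 5 T and NK cell, 3 erythroid and 4 stromal markers.

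The first question was whether [BF/S+L/Ep] changed these mRNAs. None passed the test at 12 h: 0 of 49 had an adjusted p under 0.05 (limma, Benjamini-Hochberg over 45037 probe sets), where 0.0200% of all probe sets did. At 4 h 0 of 49 passed, with a background of 0.00444%, and averaged over both times 0 of 49 passed, with a background of 0.107%. At an unadjusted p under 0.05 there were 1 gene at 12 h, 0 at 4 h and 0 on the average. Of all probe sets, 5.96%, 4.97% and 7.08% reached this in the same order. Intervals were narrow for the bright genes: for all 35, the 95% interval of the fold change lay within 1.5-fold in either direction at 12 h and at 4 h. Over all 49 this held for 39 at 12 h and 41 at 4 h.

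*Rps18*, at the head of the small subunit, had the smallest p at 12 h. Its signals were 38677 and 34072 after [BF/S+L/Ep], against 44083 and 44936 in DMSO at 12 h, and 47729 and 41084 after [BF/S+L/Ep], against 43909 and 47598 in DMSO at 4 h. The groups did not overlap at 12 h and overlapped at 4 h. The log2 fold change at 12 h was -0.29 (95% interval -0.55 to -0.03, unadjusted p = 0.0299, limma adjusted p = 0.798), so it did not pass. At the other 2 probe sets of *Rps18* that were above the reference on all arrays it was -0.15 and -0.17.

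The 4 genes next in order at 12 h did not pass either. *Rpl37*, of the large subunit, had 6328 and 5921 after [BF/S+L/Ep], against 8209 and 6878 in DMSO (log2 fold change -0.30, adjusted p = 0.860). *Rps28* had 44615 and 45631 after [BF/S+L/Ep], against 52563 and 51957 in DMSO (-0.21, adjusted p = 0.887), and *Rpl35* had 37246 and 37387, against 43570 and 44080 (-0.23, adjusted p = 0.887). *Rps10*, with a TOP tract of 10 bases, had 41190 and 44152 after [BF/S+L/Ep], against 48636 and 49103 in DMSO (-0.20, adjusted p = 0.892). In all of these the treated arrays lay below the control arrays of the same time. *Rps10* has 4 other probe sets above the reference on all arrays, and they differ among themselves: 3 gave -0.12, -0.20 and -0.17, while the dimmest of the 4 had 12359 and 6811 after [BF/S+L/Ep], against 23221 and 16500 in DMSO (-1.09, adjusted p = 0.239).

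**Figure D1:**
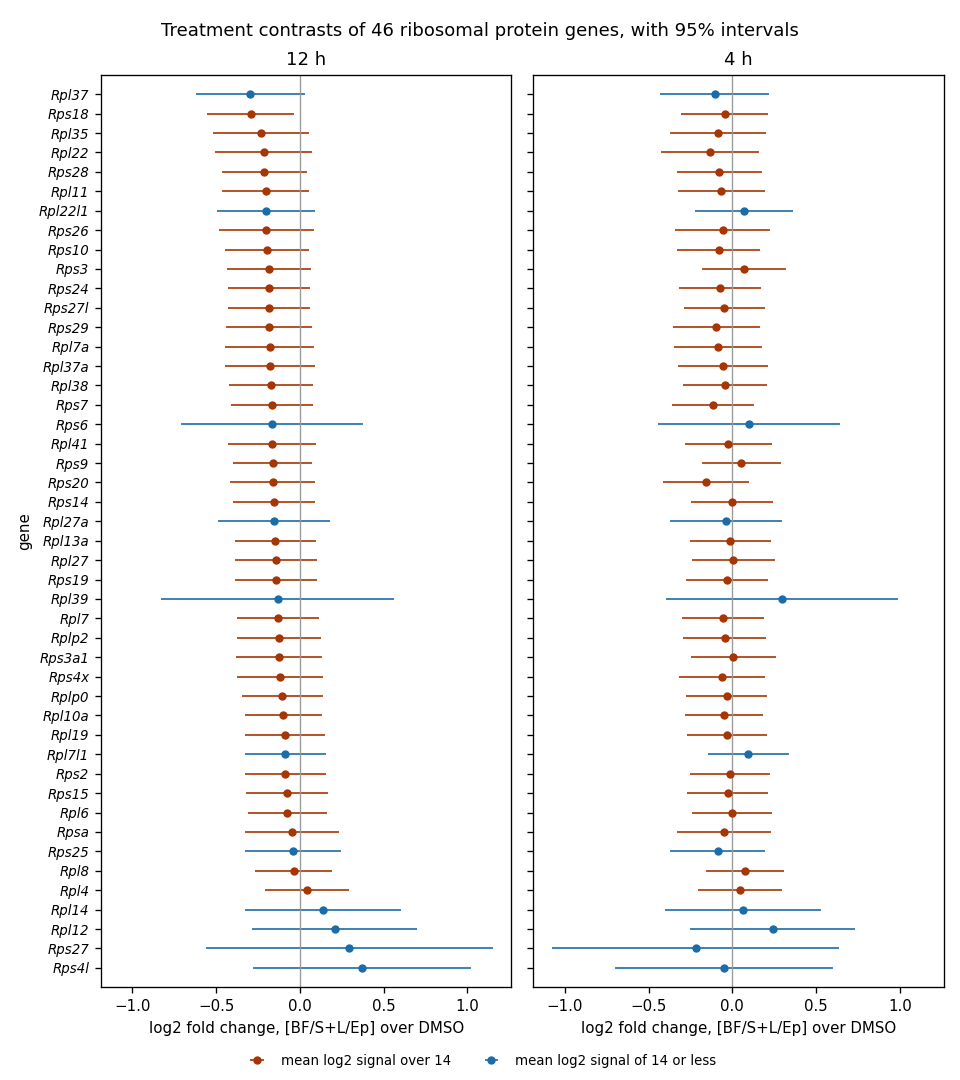
Log2 fold changes of [BF/S+L/Ep] over DMSO at 12 h (left) and 4 h (right) for the 46 genes that exceeded the background reference on every array (points, limma estimates from 2 arrays a group; bars, 95% intervals). Genes run from the lowest at 12 h at the top; the red genes, with a mean log2 signal over 14, have intervals within 1.5-fold at both times, and only the interval of *Rps18* at 12 h leaves out 0.

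At 4 h the smallest p belonged to *Rps20*, with 40400 and 34644 after [BF/S+L/Ep], against 39715 and 43817 in DMSO (log2 fold change -0.16, adjusted p = 0.997). *Rpl12*, *Rps7* and *Rpl22* followed, with log2 fold changes of 0.24, -0.11 and -0.13 and an adjusted p of 0.9996 each, after *Rpl3l*, which lay under the reference. Averaged over both times *Rps18* (-0.17), *Rps20* (-0.16), *Rpl37* (-0.20), *Rpl22* (-0.18) and *Rps7* (-0.14) had the smallest p-values, with adjusted p from 0.737 to 0.763, and none passed.

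The family leaned to one side without any gene passing. At 12 h the log2 fold change was below 0 for 43 of 49 genes and above 0 for 6, with a median of -0.15 (a fold of 0.903), while the median of all probe sets was -0.03. At 4 h it was below 0 for 37 and above 0 for 12, with a median of -0.05, against -0.02 for all probe sets. The large subunit had medians of -0.14 at 12 h and -0.04 at 4 h, and the small subunit -0.16 and -0.05. Of all probe sets 53% were below 0 at 12 h and 52.2% at 4 h. Of the 49 genes 34 were below 0 at both times and 3 above 0 at both. The 34 include *Rpl3l* and *Rpl39l*, which allow no fold change. The share of all probe sets below 0 at both times was not counted.

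The order of the same arrays, taken singly, showed this lean at 12 h and not at 4 h. At 12 h both [BF/S+L/Ep] arrays lay below both DMSO arrays for 31 of 49 genes (63.3%), where this held for 19.7% of all probe sets, and above both for 1 gene (*Rpl12*), with a background of 15.1%. At 4 h they lay below for 1 gene (*Rpl3l*, background 17.6%) and above for 1 (*Rpl8*, background 15.1%). The lean at 12 h was shared by other bright probe sets: of 283 with a mean log2 signal over 14 that list no ribosomal protein, 145 (51.2%) had both treated arrays below both controls at 12 h, and their median log2 fold change was -0.09, beside -0.16 for the 35 bright ribosomal protein genes. The difference between the family and equally bright probe sets was not tested. The 6 neutrophil markers measured, 3 of them above the reference on all arrays, also stood lower at 12 h, with sums of 2693 to 3053 after [BF/S+L/Ep], against 3208 to 3227 in DMSO. The sums of the 8 dendritic cell markers overlapped, at 155368 to 159213 after [BF/S+L/Ep], against 159039 to 168353 in DMSO. The neutrophil sum rests mostly on *S100a8*, and the dendritic cell sum on *Cd74*, *H2-Aa* and *H2-Ab1*. The part of these sums in the lean was not tested.

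The size of this lean depended on the scaling. After quantile normalization, which gives every array the same distribution of signals, the median of the 49 genes was -0.01 at 12 h and -0.01 at 4 h, with 28 genes below 0 and 20 above at 12 h. Both [BF/S+L/Ep] arrays then lay below both DMSO arrays at 12 h for 10 of 49 genes, where this held for 17.9% of all probe sets. With each array centred on its median, the median of the family was -0.07 at 12 h and 0.01 at 4 h, where 29 genes were above 0 and 20 below. That centring moved the median of all probe sets to 0.05 at 12 h and 0.04 at 4 h.

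**Figure D2:**
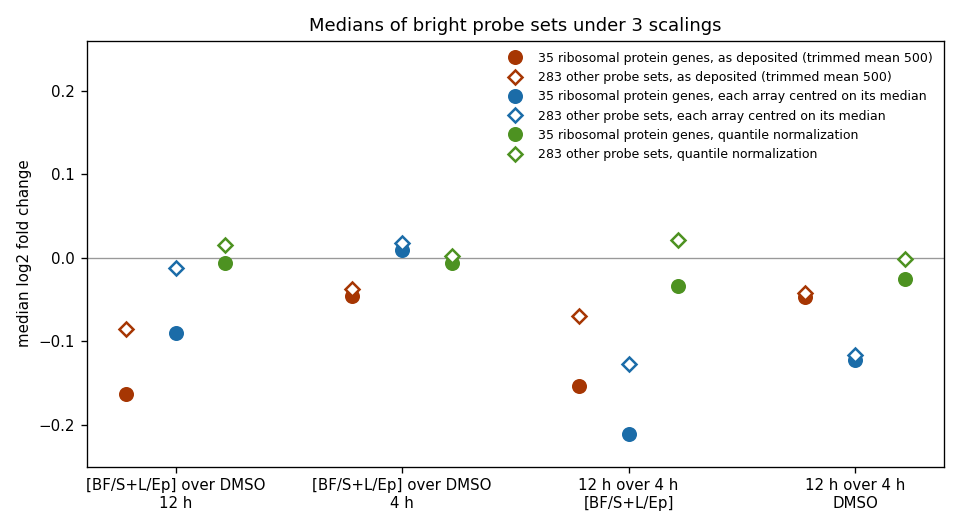
Median log2 fold change (y axis) of the 35 ribosomal protein genes with a mean log2 signal over 14 (circles) and of 283 other probe sets as bright (open diamonds) in 4 comparisons (x axis), as deposited, with each array centred on its median and after quantile normalization. As deposited, the ribosomal protein genes lie at -0.16 for [BF/S+L/Ep] over DMSO at 12 h, and after quantile normalization at -0.01.

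The 2 arrays of [BF/S+L/Ep] at 4 h differed by more than the treatments. For the 35 bright genes the median deviation from each gene's mean over the 8 arrays was -0.14 and -0.12 after [BF/S+L/Ep] and -0.01 and 0.06 in DMSO at 12 h, and 0.15 and -0.08 after [BF/S+L/Ep] and 0.04 and 0.11 in DMSO at 4 h, on the log2 scale and in the order of replicates 1 and 2. Replicate 1 of [BF/S+L/Ep] at 4 h was the highest array for 29 of the 35 genes, and all 35 were higher on it than on replicate 2, by a median of 0.22. The 283 other bright probe sets differed between these arrays by 0.15. Without replicate 1 the median of the 49 genes at 4 h was -0.14, and without replicate 2 it was 0.07, so its sign rests on 1 array. Single bright genes varied little. The median standard deviation between replicates was 0.09 per gene, and the median range over the 8 arrays was 1.25-fold, at most 1.401-fold.

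**Figure D3:**
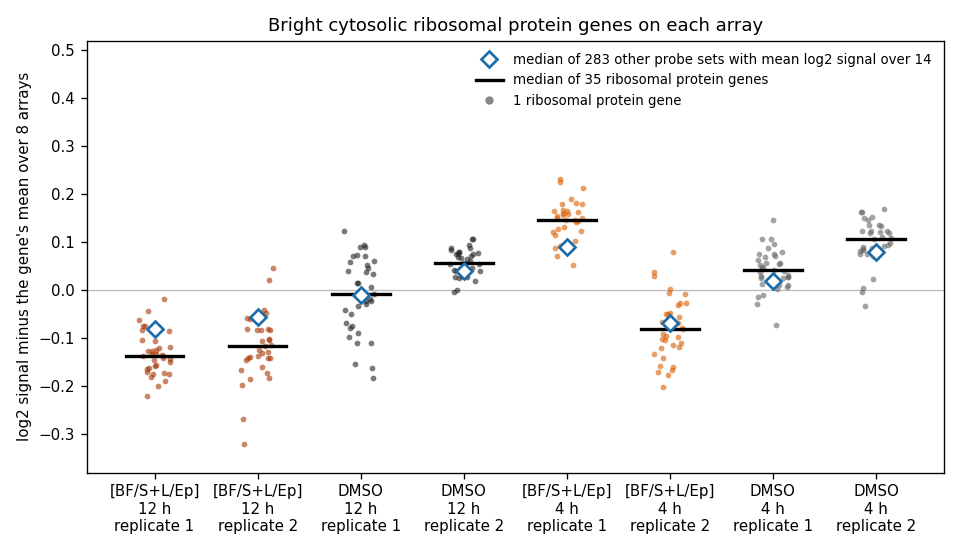
Log2 signal of each of 35 bright ribosomal protein genes minus its mean over the 8 arrays (points), the median of these genes (bars) and the median of 283 other bright probe sets (diamonds), for the 2 arrays of each group. The [BF/S+L/Ep] 12 h arrays lie at -0.14 and -0.12, below DMSO at 12 h, and the [BF/S+L/Ep] 4 h arrays lie apart at 0.15 and -0.08.

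No difference in the response to [BF/S+L/Ep] between the times was detected. The test of that difference, 12 h minus 4 h, passed for 0 of 49 genes and for 0% of all probe sets. An unadjusted p under 0.05 was found for 0 of the 49 and for 3.66% of all probe sets. The median difference was -0.11 on the log2 scale, below 0 for 42 genes and for 51% of all probe sets. Without [BF/S+L/Ep] 4 h replicate 1 the median difference was 0.00. *Rps3* (-0.26), a DNA repair factor as well as a protein of the mRNA entry site, *Rps18* (-0.25), *Rpl22l1* (-0.27), *Rps9* (-0.22) and *Rpl7l1* (-0.18) had the smallest p-values, each with an adjusted p over 0.999. The intervals were wide: for 35 of the 49 genes they lay within 1.5-fold.

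The second question was how the family stood at 12 h relative to 4 h within each treatment. After [BF/S+L/Ep], 1 of 49 genes passed, with a background of 2.86% of all probe sets, and in DMSO 0 of 49 passed, with a background of 2.10%. At an unadjusted p under 0.05 there were 4 genes after [BF/S+L/Ep], all lower at 12 h, and 4 in DMSO, 3 lower and 1 higher. These were 8.16% of the 49 in each treatment, a smaller share than among all probe sets. That share was 13.8% after [BF/S+L/Ep] and 12.4% in DMSO. The median log2 change was -0.15 after [BF/S+L/Ep] and -0.05 in DMSO, beside 0.02 and 0.03 for all probe sets. Both comparisons and the treatment comparisons use the same arrays, so their values are not independent of each other.

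The gene that passed was *Rpl22l1*, a paralogue of *Rpl22* that can take its place in the ribosome and that acts with it in blood cell development. Its signals were 8596 and 9351 under [BF/S+L/Ep] at 12 h, against 17238 and 12567 under [BF/S+L/Ep] at 4 h. In DMSO it had 9855 and 10800 at 12 h, against 14193 and 13852 at 4 h. All 4 arrays at 12 h lay below all 4 at 4 h. After [BF/S+L/Ep] it fell with time (log2 fold change -0.72, standard error 0.13, 95% interval -1.01 to -0.42, limma adjusted p = 0.0112), a fold of 0.609. In DMSO the log2 fold change was -0.44 (adjusted p = 0.141), which did not pass, and the difference between the 2 time courses, given above, did not pass. The DMSO contrast passed with only the 4 DMSO arrays (adjusted p = 0.0316) and without [BF/S+L/Ep] 4 h replicate 1 (adjusted p = 0.0265) or 2 (adjusted p = 0.0260). The call after [BF/S+L/Ep] was lost without 4 h replicate 1 (-0.49, adjusted p = 0.0625), without 12 h replicate 1 (-0.65, adjusted p = 0.133) or 2 (-0.78, adjusted p = 0.0565), without the intensity trend (adjusted p = 0.388), with each array centred on its median (adjusted p = 0.0503) and with only the 4 treated arrays (adjusted p = 0.0685). The direction held in all of these.

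Relative to the median of the bright ribosomal protein genes on the same array, the log2 signal of *Rpl22l1* was -2.06 and -1.91 after [BF/S+L/Ep] and -2.002 and -1.85 in DMSO at 12 h, against -1.26 and -1.48 after [BF/S+L/Ep] and -1.48 and -1.58 in DMSO at 4 h. The 12 h arrays again lay below all of the 4 h arrays. Its partner *Rpl22* had 35857 and 30687 after [BF/S+L/Ep] and 39466 and 37692 in DMSO at 12 h, against 41459 and 32127 after [BF/S+L/Ep] and 39504 and 40565 in DMSO at 4 h. For *Rpl22* the log2 fold change of 12 h over 4 h was -0.14 after [BF/S+L/Ep] (adjusted p = 0.751) and -0.05 in DMSO (adjusted p = 0.939). Another bright probe set of *Rpl22* gave -0.26 after [BF/S+L/Ep] (adjusted p = 0.393) and -0.13 in DMSO (adjusted p = 0.778). There both 12 h arrays lay below both 4 h arrays in each treatment. A dimmer probe set gave -0.19 and -0.001 in the same order.

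**Figure D4:**
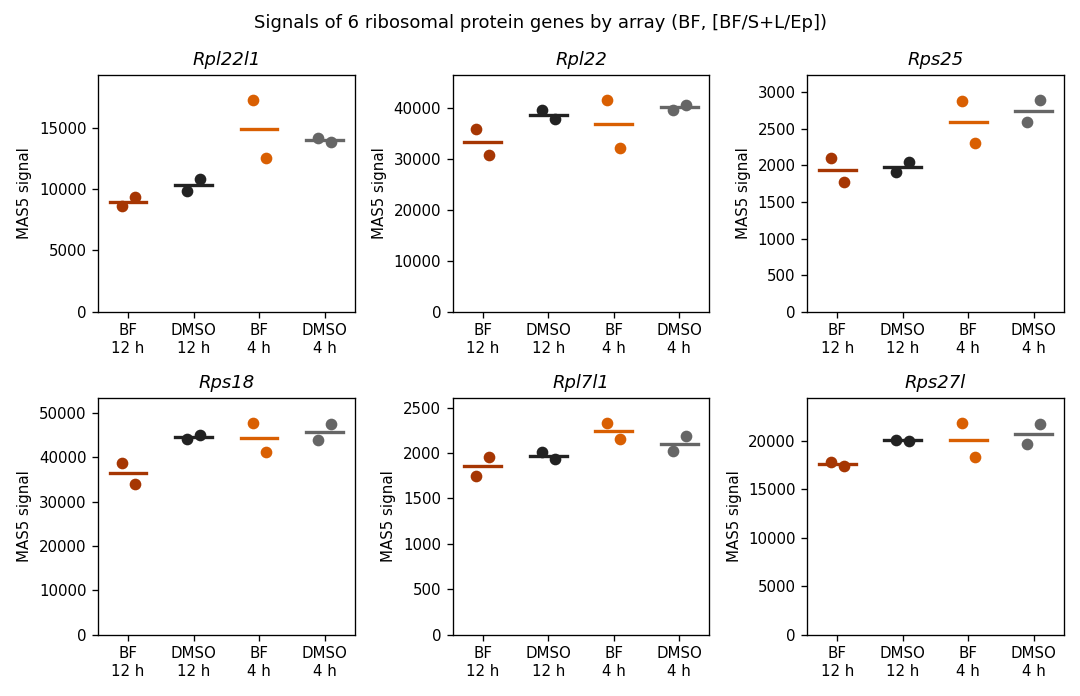
MAS5 signals (y axis, linear from 0, each panel on its own scale) of *Rpl22l1*, *Rpl22*, *Rps25*, *Rps18*, *Rpl7l1* and *Rps27l*, where points are arrays and bars are group means of 2. For *Rpl22l1* the 4 arrays at 12 h (8596 to 10800) lie below the 4 arrays at 4 h (12567 to 17238).

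*Rps25*, a protein of the small subunit needed for initiation at some viral internal ribosome entry sites, was lower at 12 h without passing. It had 2096 and 1770 under [BF/S+L/Ep] at 12 h, against 2884 and 2306 under [BF/S+L/Ep] at 4 h. In DMSO it had 1918 and 2041 at 12 h, against 2600 and 2893 at 4 h. All 12 h arrays lay below all 4 h arrays. The log2 fold change was -0.42 after [BF/S+L/Ep] (adjusted p = 0.133) and -0.47 in DMSO (adjusted p = 0.105, and 0.0429 with only the 4 DMSO arrays), and the treatment contrasts of *Rps25* were -0.04 at 12 h and -0.09 at 4 h. Its probe set is dimmer than those of the bright genes.

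*Rpl7l1*, a paralogue of *Rpl7*, was next after [BF/S+L/Ep]. It had 1747 and 1959 at 12 h, against 2330 and 2158 at 4 h, and the log2 fold change was -0.28 (adjusted p = 0.271). *Rps18* followed at -0.29 (adjusted p = 0.298) and *Rps2*, an arginine-methylated protein of the small subunit, at -0.24 (adjusted p = 0.369). In DMSO *Rpl39* stood at 523.1 and 577.9 at 12 h, against 434.8 and 215.2 at 4 h (0.85, adjusted p = 0.274), and *Rpl14* at 238.2 and 293.5, against 324.1 and 377.6 (-0.40, adjusted p = 0.498), both at dim probe sets. *Rpl3l* had the fourth smallest p there and was under the reference. The multi-symbol probe sets that list *Rpl39* (1) or *Rpl14* (5) were above the reference on all arrays.

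Between times, both 12 h arrays lay below both 4 h arrays after [BF/S+L/Ep] for 26 of 49 genes, with a background of 20.1%, and above both for 0, with a background of 22.0%. In DMSO they lay below for 16 genes, with a background of 19.1%, and above for 3 (*Rpl39*, *Rps3* and *Rps9*), with a background of 22.5%. Of the 283 other bright probe sets, 36.4% lay below after [BF/S+L/Ep] and 36.7% in DMSO. After quantile normalization the median of the family was -0.03 after [BF/S+L/Ep] and -0.04 in DMSO. Without [BF/S+L/Ep] 4 h replicate 1 the median after [BF/S+L/Ep] was -0.05, and without replicate 2 it was -0.27.

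Other measures moved with time as well. The summed signal of the 6 macrophage markers measured was 20330 to 20928 after [BF/S+L/Ep] and 19234 to 21567 in DMSO at 12 h, against 16704 to 16954 after [BF/S+L/Ep] and 16491 to 16744 in DMSO at 4 h, with 5 of the 6 above the reference on all arrays and *Marco* on 0. The dendritic cell sum, of 8 markers with 7 above the reference on all arrays, was lower at 12 h: 155368 to 159213 after [BF/S+L/Ep] and 159039 to 168353 in DMSO, against 166972 to 181272 after [BF/S+L/Ep] and 168730 to 171239 in DMSO at 4 h. The neutrophil sum was 2693 to 3053 after [BF/S+L/Ep] and 3208 to 3227 in DMSO at 12 h, against 3191 to 4085 after [BF/S+L/Ep] and 3350 to 3534 in DMSO at 4 h. Within each treatment the macrophage sums at 12 h lay above those at 4 h, and the dendritic cell and neutrophil sums below. The sums add linear signals, so their brightest markers weigh most. For dendritic cells these were *Cd74*, *H2-Aa*, *H2-Ab1* and *Itgax*, with mean signals of 52776, 51905, 39896 and 16842. Each is over the 16384 used above for bright probe sets. The macrophage sum rested mostly on *Cd68* (7636) and *C1qa* (6770), and the neutrophil sum on *S100a8* (2390). The log2 ratio of the 3′ to the 5′ probe set of *Gapdh* was -0.55 to -0.62 on the 12 h arrays, against -0.40 to -0.51 on the 4 h arrays. For beta-actin this ratio was 0.23 to 0.31 on the 12 h arrays and 0.28 to 0.33 on the 4 h arrays. Its ranges overlapped. The part of these measures in the time results was not tested. A change in the mix of cells cannot be told apart from a change in mRNA per cell.

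None of the genes of the family with special roles passed in a treatment contrast. *Rplp0*, the base of the acidic stalk and a common reference gene, had 31295 and 34324 after [BF/S+L/Ep] and 33678 and 36967 in DMSO at 12 h, and 37918 and 34653 after [BF/S+L/Ep] and 36710 and 37566 in DMSO at 4 h. The groups overlapped at both times, and its log2 fold changes with treatment were -0.11 (95% interval -0.35 to 0.14) at 12 h and -0.03 (-0.28 to 0.21) at 4 h. *Rplp2* had -0.13 and -0.05 in the same order. *Rpsa*, also known as the laminin receptor, had 37295 and 44188 after [BF/S+L/Ep] and 39656 and 44525 in DMSO at 12 h, and its treatment contrast was -0.05 at both times.

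*Rpl11*, which can bind MDM2 when ribosome assembly is disturbed, had 28744 and 26564 after [BF/S+L/Ep], against 32458 and 31188 in DMSO at 12 h (log2 fold change -0.20, adjusted p = 0.893). *Rps19*, the gene most often mutated in Diamond-Blackfan anaemia in humans, had -0.14 at 12 h and -0.03 at 4 h. *Rps14* had -0.15 and 0.00 in the same order. *Rpl13a*, which in human myeloid cells takes part in silencing of inflammatory mRNAs, had -0.15 and -0.01. *Rpl38* and *Rpl10a*, known for effects on translation of particular mRNAs in mouse development, had -0.17 and -0.10 at 12 h and -0.04 and -0.05 at 4 h. None of these passed.

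Of the paralogue pairs, *Rps27l*, a p53 target, had 17830 and 17417 after [BF/S+L/Ep], against 20095 and 19989 in DMSO at 12 h, and 21844 and 18310 after [BF/S+L/Ep], against 19701 and 21722 in DMSO at 4 h. Its treatment contrast was -0.19 at 12 h, and -0.27 and -0.26 at its other 2 probe sets, and it did not pass. *Rps4x* had -0.12 at 12 h and -0.06 at 4 h, and *Rps4l*, at a dim probe set of 140.9 to 278.0, had 0.37 and -0.05. *Rpl7* had -0.13 and -0.06 where *Rpl7l1* had -0.09 and 0.10. A second probe set of *Rps9*, picked out after its values were seen, gave 406.5 and 394.9 under [BF/S+L/Ep] at 12 h, against 199.1 and 185.9 at 4 h (log2 fold change 1.06, limma adjusted p = 0.0406). The brightest probe set of *Rps9* had 32863 and 30411 at 12 h, against 35526 and 32016 at 4 h (-0.09). The third, brighter than the second, had 888.6 and 805.9 at 12 h, against 890.9 and 699.3 at 4 h (0.10, limma adjusted p = 0.893). The 3 probe sets disagree, and only the dimmest was called.

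Related lists outside the family gave median treatment contrasts from -0.09 to 0.11 at 12 h. The lowest was in the 76 mitochondrial ribosomal protein genes and the highest in the 15 growth control genes, both described below. Counted apart from these lists, the 110 probe sets that list a ribosomal protein symbol among several had median treatment contrasts of -0.17 at 12 h and -0.05 at 4 h. Of these 0 passed. *Fau*, whose product is cut into a ubiquitin-like protein and RPS30, had 28955 and 34883 after [BF/S+L/Ep] and 30578 and 35240 in DMSO at 12 h (-0.05, adjusted p = 0.988). The treatment medians at 12 h were 0.00 over 6 elongation factors, 3 of them below 0, and 0.03 over 23 initiation factors, 10 of them below 0, with 0 called in each comparison. The difference between these lists and the family was not tested.

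Some ribosome assembly genes fell with time. Of 63 measured, 0 passed in a treatment contrast, with medians of -0.07 at 12 h and 0.05 at 4 h. After [BF/S+L/Ep] 4 fell between the times (6.35%) and 0 rose, where 1.31% of all probe sets and 2.47% of those above the reference on at least 4 arrays fell. In DMSO 3 fell (4.76%) and 0 rose, where these shares were 0.921% and 1.75%. *Fbl*, the methyltransferase of box C/D snoRNPs, had 2271 and 2459 under [BF/S+L/Ep] at 12 h, against 5094 and 4588 at 4 h (log2 fold change -1.03, adjusted p = 1.78e-04), and in DMSO 2765 and 2935 at 12 h, against 4141 and 3613 at 4 h (-0.44, adjusted p = 0.0646). *Dkc1*, the pseudouridine synthase of box H/ACA snoRNPs, fell after [BF/S+L/Ep] (-1.13, adjusted p = 0.00630) and in DMSO (-1.07, adjusted p = 0.0110). *Nop16* fell in both as well (-0.85, adjusted p = 5.74e-04, and -0.52, adjusted p = 0.0194). *Nhp2*, a partner of dyskerin, fell after [BF/S+L/Ep] (-0.63, adjusted p = 0.0231), and *Nob1*, the nuclease that ends the maturation of 18S rRNA, fell in DMSO (-1.24, adjusted p = 0.0167).

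Of 15 growth control genes, 1 fell with time in each treatment (6.67%), a single gene, where 2.47% of probe sets above the reference fell after [BF/S+L/Ep] and 1.75% in DMSO. *Eif4ebp1*, the translation repressor that mTOR phosphorylates, had 1786 and 1687 under [BF/S+L/Ep] at 12 h, against 3041 and 2545 at 4 h (log2 fold change -0.68, adjusted p = 0.00650), and in DMSO 2142 and 2215 at 12 h, against 3121 and 3505 at 4 h (-0.60, adjusted p = 0.0168). *Ddit4*, an inhibitor of mTOR complex 1, had 983.1 and 914.7 after [BF/S+L/Ep], against 649.6 and 577.9 in DMSO at 12 h (0.63, adjusted p = 0.339), and *Myc*, an activator of ribosome synthesis, had -0.68 between times in DMSO (adjusted p = 0.129). Neither passed. In a treatment contrast 0 of the 15 and 0 of 8 genes of ribosome quality control passed.

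The 76 mitochondrial ribosomal protein genes, which serve the organelle's own ribosome, were lower at 12 h to a larger extent than the cytosolic family in the median. After [BF/S+L/Ep] the median log2 change was -0.29, with 73 of 76 below 0, and in DMSO it was -0.17, with 60 of 76 below 0. Of all probe sets, 48% and 47.3% were below 0 in the same order. The difference from the cytosolic genes was not tested. After [BF/S+L/Ep] 3 of 76 passed and fell (3.95%), beside 1.31% of all probe sets and 2.47% of those above the reference: *Mrps28* (-0.81, adjusted p = 0.0145), *Mrpl35* (-0.45, adjusted p = 0.0397) and *Mrpl21* (-0.50, adjusted p = 0.04998). In DMSO 0 passed. *Mrps28* had 490.6 and 525.7 under [BF/S+L/Ep] at 12 h, against 1027 and 777.0 at 4 h. With treatment 0 passed, and the median was -0.09 at 12 h and 0.03 at 4 h.

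**Figure D5:**
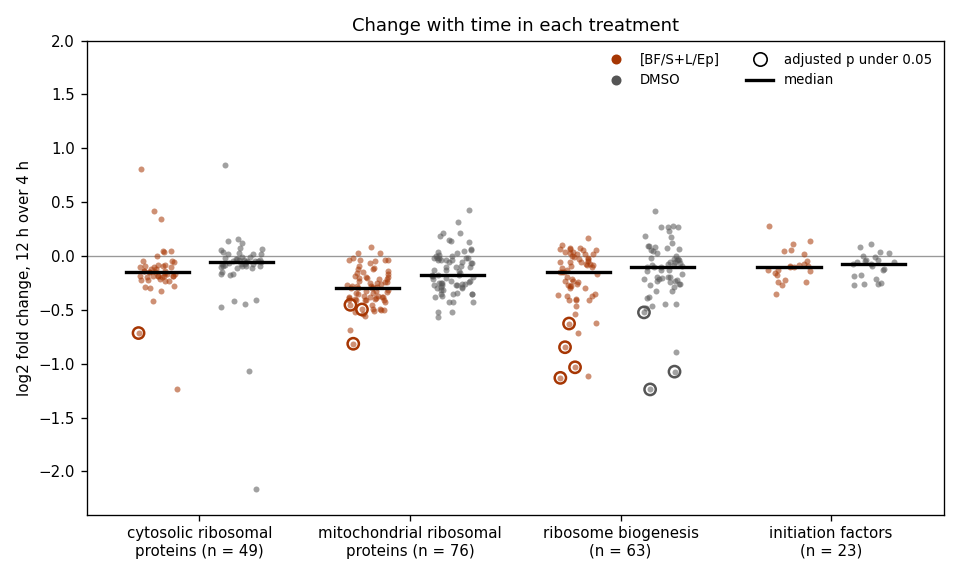
Log2 fold changes of 12 h over 4 h (y axis) for cytosolic ribosomal proteins, mitochondrial ribosomal proteins, ribosome biogenesis and initiation factors, after [BF/S+L/Ep] (red) and in DMSO (grey), with a point per gene, a bar at the median and a ring at an adjusted p under 0.05. *Rpl22l1* carries the only ring among the cytosolic genes, and the mitochondrial genes have the lowest medians, -0.29 and -0.17.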

How the data were processed

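RNA was measured on 8 Affymetrix Mouse Genome 430 2.0 arrays, 2 for each treatment and time. The intensity values are the MAS5 signals that the authors deposited, 1 per probe set and array, scaled by them to a trimmed mean of 500, with a MAS5 version not given in the sources used here. After 64 control probe sets were left out, log2 signals of 45037 probe sets were fitted with 4 group means over all 8 arrays in limma 3.58.1 (R 4.3.3, statmod 1.5.0), with an intensity trend in the moderation. Tests were two-sided, adjusted by Benjamini-Hochberg over all probe sets, with a threshold of 0.05. The file gives no depth, and the number of arrays limits the precision. Symbols came from the annotation of the series. The members and gene lists were chosen with earlier results of these data known. Genes named were those that passed, or else the 5 with the smallest p in a comparison, together with genes of known roles, the paralogue pairs, members under the background reference, and up to 3 genes of each list. Alternatives were other scalings, an offset of 50, a filter on dim probe sets, other moderation, a replicate block, a fit on only 4 arrays, other probe sets, and each array left out in turn. The replicate numbers were checked for pairing over 23561 probe sets. The fit was tested on simulated data. Plots used Python 3.11.15 and matplotlib 3.10.9.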

Additional observations from a re-analysis of the deposited data

How the results depend on the processing

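With the replicate block the counts of genes called were 0 at 12 h, 0 at 4 h and 1 between times after [BF/S+L/Ep], as without it, and it changed no call. The deviations of same-numbered arrays correlated at -0.03 to 0.11 over the pairs of groups. Such values do not settle whether same-numbered arrays share an experiment, and the sources used here do not say. The replicate numbers were therefore not treated as pairs in the main fit. Quantile normalization gave medians of -0.0122 at 12 h, -0.0334 between times after [BF/S+L/Ep] and -0.00114 for the difference of the responses. The call between times after [BF/S+L/Ep] was lost (0 genes) with each array centred on its median, without the intensity trend, with only the 4 arrays of the comparison and with only the bright members (added after seeing the data), where *Rpl22l1* is not among them. It was 2 with all single-symbol probe sets or without probe sets that end in _x_at or _s_at, through the second probe set of *Rps9*. Only the 4 arrays of the comparison called 2 genes in DMSO, *Rpl22l1* and *Rps25*. The average and the difference cannot be fitted with 4 arrays. Leaving out each array in turn gave 0 to 1 genes between times after [BF/S+L/Ep] and 0 to 1 in DMSO, and medians of -0.136 to 0.0700 at 4 h, -0.27 to -0.0491 between times after [BF/S+L/Ep] and -0.20 to 0.00334 for the difference. Where an array was left out, the lone array of its group was assumed to vary like the others. For the 10 genes followed one by one, 1020 values kept their side of the threshold, 6 lost and 4 gained a call, and 0 reversed. The causes were not tested. With 2 arrays a group the interval of a member at 1 time spans 0.26 in log2 on either side in the median.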
